A study of Mus musculus with 4 samples.

Results

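Transcripts of 10 amino acid transporters were followed in mouse embryonic stem cells with and without the chromatin remodeler Chd1. They were Slc7a5, Slc3a2, Slc7a11, Slc7a3, Slc7a1, Slc1a5, Slc1a4, Slc38a1, Slc38a2 and Slc6a9, chosen by name as neutral, cationic, cystine and glycine carriers. All 10 symbols were found in the tables of both sets, out of 11728 genes named once in each. Of the 10, 8 had a mean of at least 1 FPKM (fragments per kilobase of transcript, scaled to library size, the unit the deposited values were taken to have) and were tested among 10261 genes. Slc7a11 and Slc6a9 lay under that level and are given as values.

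The cells carried Rosa26CreER, a tamoxifen-dependent Cre recombinase expressed from the Rosa26 locus, with 1 floxed and 1 null Chd1 allele (Chd1 fl/-). Controls received ethanol and so kept 1 functional allele. The Chd1-/- cells, called Chd1-null here, received 1 µM tamoxifen for 48 to 72 h and were then grown without it for 3 to 5 passages. Both groups grew in serum with LIF, in a medium with 15% serum, added non-essential amino acids, a stabilised glutamine source and 0.057 mM beta-mercaptoethanol. The 4 libraries were 1 control and 1 Chd1-null library in each of 2 sets. The protocol names 2 independently derived lines, but no label says which line a set came from. The p-values below therefore compare 2 pairs of libraries and not 2 known lines. In the main fits they use the spread shared by genes of similar level, and a gene's own spread between the pairs did not enter. The same number of viable cells went into each RNA sample and ERCC transcripts were added, but how these entered the deposited values is not given in the sources used here. Whether the deposited scale is an amount per cell was not tested. In bulk RNA, fewer cells of a kind and less RNA per cell cannot be told apart.

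Amino acid transporters of the plasma membrane differ in what they carry and in how they are driven. Exchangers such as Slc7a5 swap an internal amino acid for an external one, sodium-coupled carriers such as Slc38a2 accumulate small neutral amino acids, and the cationic carriers bring in arginine and lysine. Several are known to be induced by ATF4, a transcription factor activated when amino acids are scarce, which binds a composite ATF4-C/EBP element. Mouse embryonic stem cells are known for a high demand for threonine and glutamine.

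The starts of 3 members are shown, given as 150 bases before to 10 after the annotated start, in the direction of transcription. The sequences are RefSeq's, build GRCm38.p6, minus strand. Slc7a11 (chr3:50443604-50443763) and Slc1a4 (chr11:20332704-20332863) are shown because they hold the core of the ATF4-C/EBP element. Slc38a2 (chr15:96699719-96699878) is shown because it was the transporter that passed the test below, and its start holds no match. Capitals mark TGATGNAA or its reverse complement.

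Slc7a11: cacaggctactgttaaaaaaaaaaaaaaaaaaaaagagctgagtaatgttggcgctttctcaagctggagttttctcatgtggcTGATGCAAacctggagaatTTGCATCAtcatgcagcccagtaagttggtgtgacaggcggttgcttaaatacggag
Slc1a4: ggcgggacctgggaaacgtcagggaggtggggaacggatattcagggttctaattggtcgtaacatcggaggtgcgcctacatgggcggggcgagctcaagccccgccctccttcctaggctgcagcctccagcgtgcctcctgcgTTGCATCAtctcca
Slc38a2: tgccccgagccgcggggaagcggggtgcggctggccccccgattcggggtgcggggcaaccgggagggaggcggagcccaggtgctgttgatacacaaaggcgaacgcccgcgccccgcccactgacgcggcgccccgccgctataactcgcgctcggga

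RefSeq start sequences were matched for 6 of the 10 members, with 9 annotated starts of 300 bases each. TGATGNAA was searched on both strands. It was found at 2 places in the Slc7a11 sequence, as TGATGCAA with its first base at position -66 and, on the opposite strand, as TTGCATCA at -47, and the matches did not overlap. It was found at 1 place in Slc1a4, as TTGCATCA at -4, across the start. Of 32544 distinct start sequences of all genes, 3.91% held it. The E-box CACGTG, a site for Myc and related factors, is palindromic, was held by 7.17% of all sequences and was in none of the 9. A match describes these letters and is not a measured site. Elements outside the 300 bases were not searched, so a start without a match does not show that the gene lacks one.

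Depth and labels were checked first. FPKM summed over all loci to between 466994 and 719549 per library, and the unit gives no read depth, so no counting interval is given. For Chd1, the deleted gene, 20.7% of the control value was left in set 1 and 47.7% in set 2. The value is for the whole locus, and the extent of the deletion is not given in the labels, so it is no measure of intact transcript. All 8 pluripotency markers were tested, and their summed level was 2710 and 3434 FPKM in the controls and 1999 and 1907 in the Chd1-null libraries. Of the 8, 7 fell on the deposited scale (limma adjusted p under 0.05), beside 9.80% of all tested genes. Esrrb, Nanog and Utf1 changed most, by -1.22, -1.17 and -1.12 (log2). With each set's median log2 ratio subtracted, 0 of the 8 fell. Whether the state of the cells differed between the groups was not tested. The 5 fibroblast markers of 8 that were named in both tables summed to between 2.65 and 8.29 FPKM, and the 4 primitive endoderm markers of 8 to between 11.7 and 26.7. The 5 neural markers of 5 summed to between 28.3 and 49.4 FPKM. The 5 trophectoderm markers of 6 differed between the sets, at 320.0 and 165 FPKM in control and Chd1-null of set 1 and 55.8 and 35.3 in set 2, mostly from the keratins Krt8 and Krt18. Their part in the results below was not tested.

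Levels came first. The 10 transcripts spanned a wide range, and both groups had the same order of mean level. Slc7a3, a cationic carrier, was the highest of the 10 in every library, at 133 ± 18.6 FPKM in the controls and 117 ± 1.99 in the Chd1-null libraries (mean ± SD, n = 2). It held between 32.3% and 38.4% of the summed FPKM of the 10 genes. Slc38a2 followed at 87.3 ± 11.0 FPKM in control, then Slc3a2 at 64.0 ± 4.94 and Slc7a5 at 56.9 ± 9.93. The ranges of Slc3a2 and Slc7a5 overlapped in control, as did those of Slc38a1 and Slc1a4, so their order there is not beyond the spread. All other neighbours in the order did not overlap in either group. The tables of the sets may have been scaled separately, so these levels across sets are a description.

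**Figure D1:**
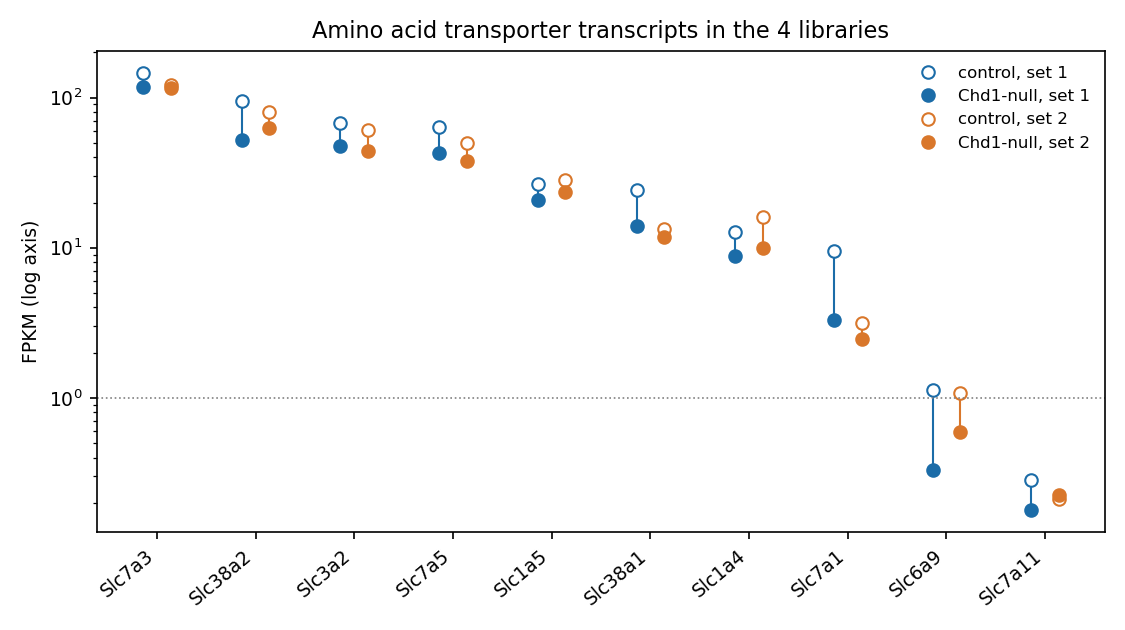
FPKM of the 10 transporters in each library on a log axis, with open circles for control, filled circles for Chd1-null, blue for set 1 and orange for set 2, and a line joining the libraries of a set. The dotted line is the 1 FPKM limit on the mean. Slc7a3 is highest and Slc7a11 lowest, and the filled circle lies under the open one everywhere except for Slc7a11 in set 2.

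On the deposited scale, 9 of the 10 transporters were lower in the Chd1-null libraries of both sets. Among the tested members this was 8 of 8, beside 72.4% of all tested genes. Slc38a2 was the 1 member that fell by the test; 0 rose. The other 7 tested members did not pass, although 6 of the 8 tested were lower at an unadjusted p under 0.05, as were 28.9% of all tested genes. Of all tested genes 9.80% fell and 0.0682% rose (limma, Benjamini-Hochberg adjusted p under 0.05), so 1 of 8 is near the background. The log2 ratios of the tested members, taken of FPKM + 0.1, had medians of -0.55 (set 1) and -0.35 (set 2), beside -0.46 and -0.33 for all tested genes. Where each library was instead divided by its own sum, the medians of all genes were -0.14 and 0.14. On that scale 1 of the 8 tested transporters was lower in both sets (Slc1a4), 1 was higher in both (Slc7a3), 6 went opposite ways, and 0 passed in limma. Apart from Slc1a4, the lower values of the tested members are therefore stated for the deposited scale.

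The light chain Slc7a5 and the heavy chain Slc3a2 form the exchanger of large neutral amino acids. Slc7a5 carries leucine and other essential amino acids in exchange for glutamine, and Slc3a2 brings it to the cell surface. Slc7a5 measured 63.9 FPKM in the control library and 42.5 in the Chd1-null library of set 1, and at 49.8 and 37.6 in set 2. Slc3a2 stood at 67.5 and 47.4 in set 1 and at 60.6 and 44.3 in set 2. For both genes the Chd1-null library lay under the control of its own set in both sets, as for 72.4% of all tested genes. Slc7a5 was at 66.5% of control in set 1 and 75.5% in set 2, and Slc3a2 at 70.2% and 73.1%. The limma log2 change was -0.50 for Slc7a5 (SE 0.18, 95% interval -0.85 to -0.14, adjusted p = 0.0585), which narrowly missed the threshold. For Slc3a2 it was -0.48 (SE 0.18, 95% interval -0.83 to -0.13, adjusted p = 0.0626). The FPKM of Slc3a2 divided by that of its partner Slc7a5 was 1.06 and 1.12 in control and Chd1-null of set 1, and 1.21 and 1.18 in set 2. The ratio of the partners was thus higher in the Chd1-null library of set 1 and lower in that of set 2.

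Slc7a11, the cystine-glutamate exchanger, uses the same heavy chain and supplies cysteine for glutathione. It was the lowest of the 10, with 0.283 FPKM in the control library and 0.180 in the Chd1-null library of set 1, and at 0.213 and 0.225 in set 2. Its values lay close to the lowest value in the tables, and its mean at the 0.580 percentile of the mean levels of all named genes. The groups overlapped and the sets went opposite ways. Slc3a2 was between 197 and 284 times as high per length as Slc7a11. Of the 3 ATF4-element cores shown above, 2 are in the start of this gene. The Atf4 transcript stood between 273 and 579 FPKM in the 4 libraries. ATF4 protein and its binding were not measured, and whether ATF4 acts on Slc7a11 here was not tested.

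The cationic carriers Slc7a3 and Slc7a1 bring in arginine, lysine and ornithine. Slc7a3 measured 147 FPKM in the control library and 118 in the Chd1-null library of set 1, and at 120.3 and 115 in set 2. Both Chd1-null values were under the control of their own set on the deposited scale. The difference within set 2 was small, with 95.7% of control against 80.5% in set 1. The limma log2 change was -0.19 (SE 0.17, 95% interval -0.52 to 0.14, adjusted p = 0.428), and with libraries divided by their sums the sign turned, to 0.21. Slc7a1, the housekeeping cationic carrier of most mouse tissues, measured 9.54 FPKM in the control library and 3.30 in the Chd1-null library of set 1. In set 2 it stood at 3.17 and 2.46. The Chd1-null library of set 1 thus lay above the control of set 2, so the groups overlapped, and control of set 1 stood apart from the other 3 libraries. Its mean log2 change of -0.93 (SE 0.38, 95% interval -1.68 to -0.17, adjusted p = 0.0950) did not pass, with log2 ratios of -1.50 (set 1) and -0.35 (set 2). Slc7a3 was 15.4 times as high as Slc7a1 in control of set 1, 35.7 times in Chd1-null of set 1, and 38.0 and 46.8 times in the libraries of set 2. The summed FPKM of both cationic carriers was at 77.7% of control in set 1 and 95.2% in set 2.

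Slc1a5 and Slc1a4 are sodium-dependent exchangers of alanine, serine and cysteine, and Slc1a5 is also a main entry route for glutamine. Slc1a5 measured 26.4 FPKM in the control library and 20.9 in the Chd1-null library of set 1, and at 28.3 and 23.4 in set 2. Slc1a4 stood at 12.7 and 8.78 in set 1, and at 15.9 and 9.90 in set 2. Both genes were lower in the Chd1-null library of each set on the deposited scale, yet neither passed the test. The limma log2 change was -0.31 for Slc1a5 (SE 0.21, 95% interval -0.71 to 0.10, adjusted p = 0.293), and with libraries divided by their sums it was 0.0901. For Slc1a4 it was -0.60 (SE 0.25, 95% interval -1.10 to -0.11, adjusted p = 0.0995). Slc1a4 was the tested member with the lowest share of control in set 2, at 62.1%, against 69.4% in set 1. The FPKM of Slc1a5 over that of Slc1a4 was 2.09 and 1.78 in the controls and 2.38 and 2.36 in the Chd1-null libraries, so the ratio was higher in Chd1-null cells in 2 of 2 sets, a description chosen after the values were seen.

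Slc38a2 and Slc38a1 are sodium-coupled carriers of small neutral amino acids such as alanine and glutamine, and Slc38a2 is known to be induced when amino acids run short. Slc38a2 measured 95.05 FPKM in the control library and 51.8 in the Chd1-null library of set 1, and at 79.5 and 62.7 in set 2. Both Chd1-null values lay under the control of their own set. Slc38a2 fell by 0.61 on the log2 scale (SE 0.17, 95% interval -0.95 to -0.27, limma adjusted p = 0.0135, lower in 2 of 2 sets), with 54.5% of control left in set 1 and 78.9% in set 2. Without set as a block the adjusted p was 0.461, with one common prior variance 0.299, among genes with a mean of at least 5 FPKM 0.0722, and with libraries divided by their sums 0.993. The call was kept under the other fits run, at a limma adjusted p between 0.0111 and 0.0488, so it depends on the fit. Its log2 ratio in set 2 alone was -0.34, beside the median of -0.33 for all genes. Slc38a1, its neighbour on the chromosome in RefSeq's order, stood at 24.3 and 13.998 FPKM in set 1 and at 13.2 and 11.8 in set 2. The Chd1-null library of set 1 was above the control of set 2, so the groups overlapped, and the log2 change was -0.48 (SE 0.23, 95% interval -0.94 to -0.02, adjusted p = 0.152). Both genes were lower in set 1 by a larger factor than in set 2, and their summed FPKM was at 55.1% of control in set 1 and 80.3% in set 2.

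Slc6a9 is a sodium- and chloride-dependent glycine transporter. It measured 1.13 FPKM in the control library and 0.329 in the Chd1-null library of set 1, and 1.08 and 0.593 in set 2. It had the lowest share of control of the 10 in both sets, at 29.0% and 54.7%, but its level was too low for the test. Without a limit on the mean its log2 change was -1.15 (adjusted p = 0.258 in limma). In RefSeq's annotation it overlaps Ccdc24, which stood between 0.140 and 0.635 FPKM, and Slc7a3 overlaps Snx12, which stood between 22.1 and 29.7. How reads of overlapping genes were counted is not given in the sources used here, so the values of Slc6a9 and Slc7a3 are uncertain to that extent, as are those of Slc38a1, which overlaps Gm32457, a gene not analysed here.

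**Figure D2:**
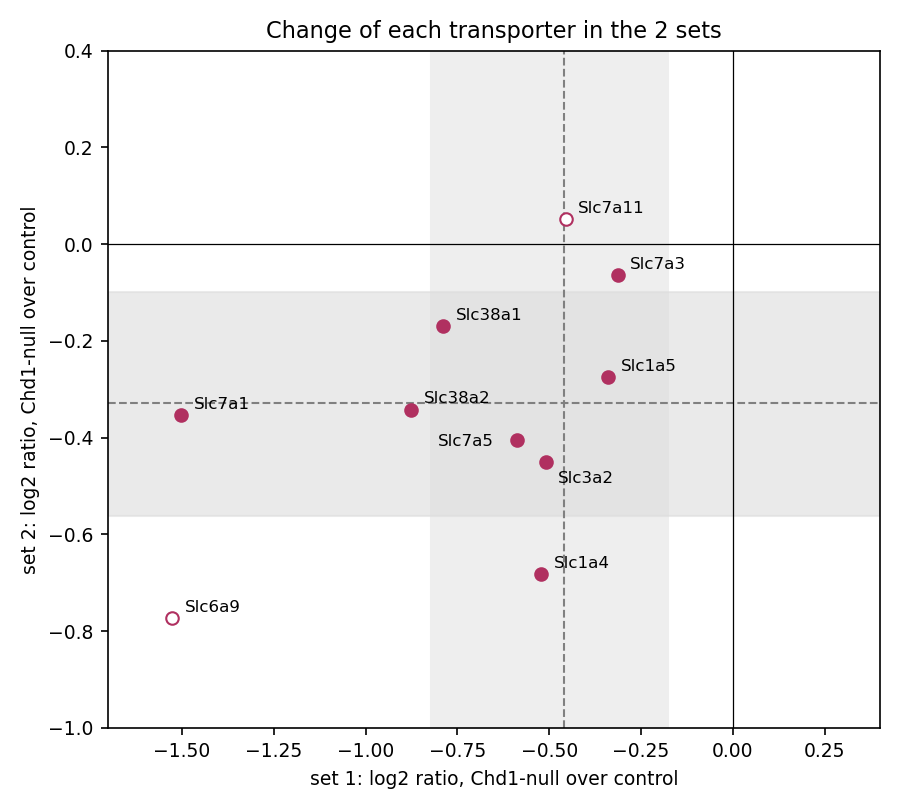
Log2 ratio of Chd1-null over control on the deposited scale for each of the 10 transporters, set 1 on the x axis and set 2 on the y axis. Filled points were tested and open points (Slc7a11 and Slc6a9) lay under 1 FPKM. Dashed lines are the medians of all tested genes and grey bands their quartiles, within which 7 of the 10 members lie in set 1 and 6 in set 2.

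The next comparison asked which transporters moved apart from most other genes, with each set's median log2 ratio subtracted. None of the 8 tested did. The adjusted p was 0.957 for Slc7a1 and 0.998 for each of the other 7, and 0 of the 8 had an unadjusted p under 0.05 in limma. Of all tested genes 0.214% fell and 0.146% rose in this comparison. Of the 10 members, 6 lay under the median gene in both sets, 3 above it in both and 1, Slc38a1, on opposite sides. These counts include the untested Slc6a9, under it in both sets, and Slc7a11, above it in both. Some placements were narrow. Relative to the median gene, Slc38a2 stood at -0.013 and Slc7a1 at -0.023 in set 2, and Slc7a11 at 0.005 in set 1 (log2). Among all tested genes 24.6% lay under it in both sets, 24.6% above it in both, and 50.7% on opposite sides.

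The intervals show how large a departure could have been missed. Slc7a5 stood at -0.10 relative to the median (SE 0.22, 95% interval -0.54 to 0.33) and its partner Slc3a2 at -0.09 (95% interval -0.52 to 0.35). Slc7a3 stood highest of the tested members, at 0.21 (95% interval -0.25 to 0.66), with 0.15 in set 1 and 0.27 in set 2. Slc1a5 stood at 0.09 (95% interval -0.36 to 0.54), Slc38a1 at -0.08 (-0.56 to 0.39) and Slc1a4 at -0.21 (-0.71 to 0.29). Slc38a2, which fell on the deposited scale, stood at -0.21 relative to the median (95% interval -0.65 to 0.22), with -0.41 in set 1 and -0.01 in set 2. Slc7a1 had the widest interval, -1.22 to 0.15 around -0.53. These intervals rest on the spread that genes of similar level share. The 2 pairs leave 1 residual degree of freedom, and limma put infinite weight on the shared spread. A gene's own spread thus did not enter, and the same holds for the main fit on the deposited scale.

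Placed among all tested genes, the log2 ratio of Slc7a1 was at percentile 4.78 in set 1 and 47.1 in set 2, and that of Slc38a2 at 22.5 and 48.5. Slc1a4 went the other way, from percentile 44.6 in set 1 to 16.4 in set 2. The partners Slc7a5 and Slc3a2 stayed between percentiles 36.1 and 45.8. Slc7a3 was at 63.0 and 77.7.

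**Figure D3:**
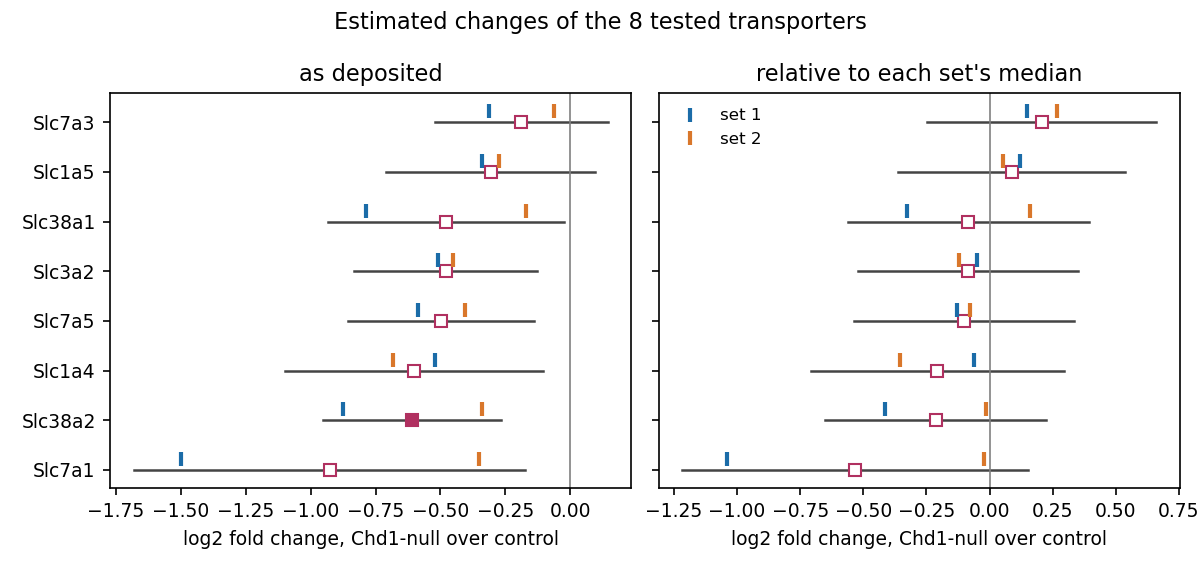
Limma log2 fold changes of the 8 tested transporters (squares, filled where the adjusted p was under 0.05) with 95% intervals (lines), on the deposited scale on the left and relative to each set's median on the right. Short bars give each set's own log2 ratio, blue for set 1 and orange for set 2. Slc38a2 is the filled square on the left, at -0.61, and on the right every interval includes 0.

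Slc6a9 had the largest mean change relative to the median among members with the same sign in both sets, at -0.75 (log2), with -1.07 in set 1 and -0.44 in set 2. Over the 4 libraries, the genes of 5 FPKM or more closest to its pattern were C77080, 2310061I04Rik and Smtnl2, out of 6861 searched. Their distances from it were 0.0888, 0.156 and 0.168 log2 units. With 4 libraries such closeness is a description.

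Of 28 other amino acid transporters listed, 18 were named in both tables and 14 were tested, of which 1 fell and 0 rose, beside 9.80% of all tested genes that fell. The 14 had medians of -0.59 (set 1) and -0.23 (set 2) on the log2 scale, and 7 of them were lower in both sets, beside 72.4% of all tested genes. The taurine transporter Slc6a6 was the one that fell, by 0.89 (SE 0.28, limma adjusted p = 0.026). Its control and Chd1-null values were 13.4 and 4.54 FPKM in set 1 and 10.2 and 8.69 in set 2. Slc38a3, a glutamine carrier, stood at 1.34 and 0.440 FPKM in set 1 and at 2.56 and 1.00 in set 2 (adjusted p = 0.183). Slc38a9, the lysosomal arginine sensor of the mTOR pathway, stood at 0.354 and 4.06 FPKM in set 1 but at 0.590 and 0.579 in set 2 (adjusted p = 0.166). For Slc43a1, Slc1a3 and Slc6a14, carriers of branched-chain, acidic and neutral with cationic amino acids, the adjusted p was at least 0.896, and each went opposite ways in the sets.

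ATF4 and those of its targets that are not transporters were lower more widely. Of 21 tested, 11 fell and 0 rose, against the background of 9.80% that fell. In both sets 19 were lower, as were 72.4% of all tested genes. The median log2 ratios were -0.74 (set 1) and -0.77 (set 2). The list was drawn up with earlier results of these data known, so its count is no independent evidence, and its difference from the transporters was not tested. Atf4 fell by 0.71 (limma adjusted p = 0.0027), with log2 ratios of -0.34 and -1.09. Among members that make or use amino acids, some fell and others did not. Phgdh and Psat1 of serine synthesis did not pass (limma adjusted p = 0.509 and 0.212), nor did Pycr1 of proline synthesis (adjusted p = 0.197). The alanine transaminase Gpt2 fell by 0.92 (adjusted p = 0.0054), the proline-synthesis enzyme Aldh18a1 by 0.81 (adjusted p = 0.0057), the serine-synthesis phosphatase Psph by 0.80 (adjusted p = 0.0016) and the asparagine synthetase Asns by 0.92 (adjusted p = 2.1e-05). Nupr1, Chac1 and Pck2 were the others with the largest changes relative to the median, at -1.80, -0.95 and -0.69, and Nupr1 alone of the 21 fell in the relative comparison (adjusted p = 9.3e-05).

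For the lists of enzymes that follow, the share of all tested genes that fell was again 9.80%, and no list was tested against it. The falls given are on the deposited scale. With each set's median log2 ratio subtracted, 0 genes of these lists fell and 0 rose in limma. Of 14 tested genes of glutathione and cystine-related redox chemistry 2 fell and 0 rose, the heme oxygenase Hmox1 by 0.90 (limma adjusted p = 0.00043) and the redox regulator Nfe2l2 by 0.68 (adjusted p = 0.017). Cbs, which starts the synthesis of cysteine from homocysteine, stood at 6.95 and 2.90 FPKM in set 1 and at 7.55 and 4.84 in set 2 (adjusted p = 0.057). Gpx1, a glutathione peroxidase, and Ggt1, a glutathione hydrolase, had adjusted p of 0.482 and 0.958. The list's medians were -0.33 and -0.44.

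Of 9 tested genes of threonine, glycine and methionine metabolism 2 fell and 0 rose. Threonine dehydrogenase, Tdh, on which mouse embryonic stem cells are known to depend, fell by 0.62 (limma adjusted p = 0.0090). Its control and Chd1-null values were 155 and 94.0 FPKM in set 1 and 120.2 and 84.1 in set 2. Shmt2, the mitochondrial serine hydroxymethyltransferase, fell by 0.58 (adjusted p = 0.034). Amt and Gcsh of the glycine cleavage system and Ahcy of the methionine cycle did not pass, at log2 changes of -0.02, -0.32 and -0.07. The list's medians, -0.42 and -0.29, lay above those of all genes.

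Of 10 tested genes of glutamine, arginine and branched-chain metabolism 4 fell and 0 rose. Glutamine synthetase, Glul, fell by 0.61 (limma adjusted p = 0.019), Odc1, which makes polyamines from ornithine, by 0.71 (adjusted p = 0.0061), Asl of arginine synthesis by 0.74 (adjusted p = 0.032) and Cad of pyrimidine synthesis by 0.58 (adjusted p = 0.025). The sets were uneven for Cad, with log2 ratios of -0.99 in set 1 and -0.17 in set 2, and for Glul, with -0.82 and -0.39. Odc1 and Asl were lower by a somewhat larger factor in set 2. The purine-synthesis enzyme Ppat, a user of glutamine, had a log2 change of -0.12 and did not pass. The list's medians were -0.57 and -0.32. Over the 5 companion lists 20 of 68 tested genes fell and 0 rose, beside 9.80% and 0.0682% of all tested genes. Of the 20, 11 came from the ATF4 list. All 5 lists were drawn up with earlier results of these data known, so these counts are no independent evidence. Relative to each set's median, Nupr1 alone of the 68 fell. At an unadjusted limma p under 0.05, 1 gene (Slc38a9) was higher on the deposited scale, from set 1 alone. Like the call of Slc38a2, the calls on these lists depend on the fit. Without set as a block 0 of all 10261 genes passed in limma (1043 at an unadjusted p under 0.05), and 0 passed with one common prior variance. Over all genes, 37 fell with libraries divided by their sums and 225 at a mean of at least 5 FPKM.

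**Figure D4:**
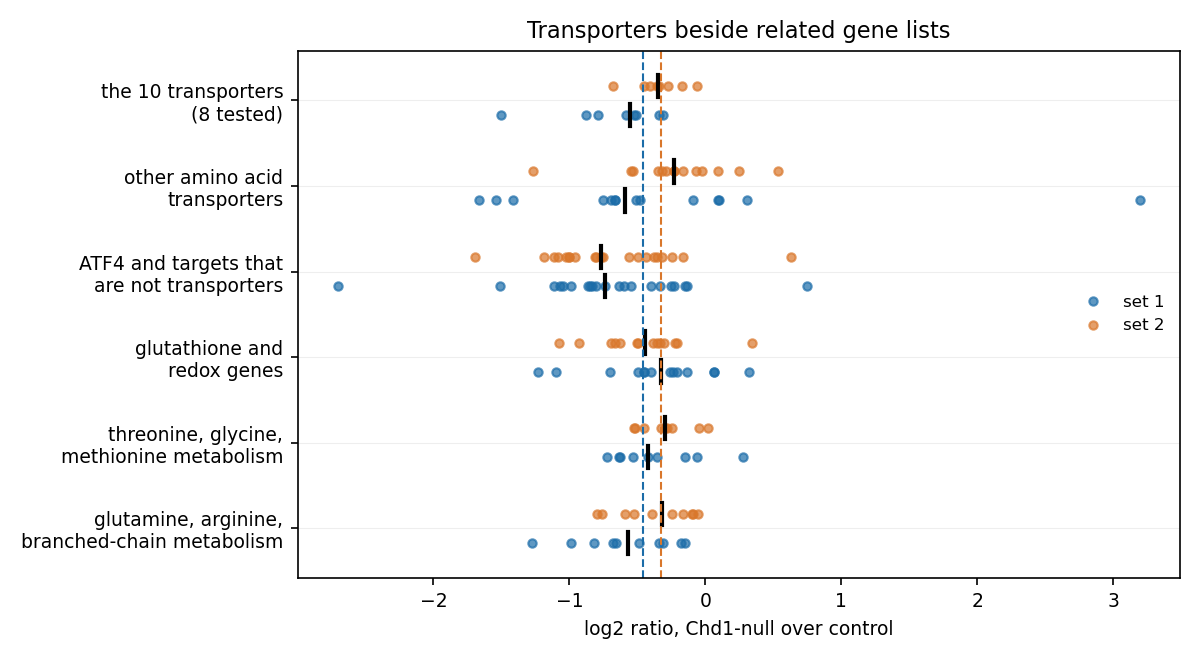
Log2 ratio of Chd1-null over control on the deposited scale for the tested members of each list (points), blue for set 1 and orange for set 2, with black bars for the list's median in that set and dashed lines for the median of all tested genes. The transporters' medians, -0.55 and -0.35, lie near the dashed lines, and those of ATF4 and its other targets, -0.74 and -0.77, lie below both.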

How the data were processed

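RNA-seq was done on 4 libraries. The deposited values were taken as FPKM, inferred from values that are not whole and, per the submitters' processing notes, from the use of Cufflinks 2.2.0 and Cuffdiff. TopHat2 2.0.10 and the mouse build mm9 are listed there too, all without their roles; how ERCC transcripts entered the scaling is not given in the sources used here. The deposited ratio columns equalled the quotient of the FPKM columns to within a relative difference of 4.97e-06. Symbols occurring once in both tables were joined. Values were compared as log2(FPKM + 0.1), which understates changes of low genes, with limma 3.58.1 in R 4.3.3 (lmFit, eBayes with a variance trend), as a two-sided test blocked on set, with p-values adjusted over 10261 genes by Benjamini-Hochberg. The labels give both libraries of a pair the same set number, and each set has its own table; deviations of same-set libraries correlated across genes (r = 0.483), and with 2 pairs that correlation alone would not show pairing. All members are named, with up to 5 genes per companion list by largest change relative to the median and the same sign in both sets. Some list genes that passed the test are also named, as are Phgdh, Psat1 and Pycr1 and single markers, all after their values were seen. The overlapping and neighbouring genes were also looked up after values were seen. Members and lists were chosen with earlier results of these data known. One companion gene that this rule takes is not reported here.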

Additional observations from a re-analysis of the deposited data

Results flagged for a closer look

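Slc7a11 stood out because its sets went opposite ways: the log2 ratio of Chd1-null over control was -0.46 in set 1 and 0.0518 in set 2. With 1 library per group in each set this difference was not tested, and the highest of its 4 values was 0.283 FPKM.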

How the results depend on the processing

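Counts over all genes on the deposited scale, 1006 fallen and 7 risen, became 0 and 0 without the replicate block, 0 and 0 with one common prior variance, 225 and 2 at a mean of at least 5 FPKM, 37 and 50 with libraries divided by their sums, and, once the trend on level was taken out of every set, 641 fallen; 4 rose with a pseudocount of 1. The relative counts, 22 fallen and 15 risen, became 0 and 0 without the replicate block, 0 and 0 with one common prior variance, 3 and 2 at 5 FPKM, and 2 and 0 with the level trend removed. The 1 transporter that fell, Slc38a2, became 0 without the replicate block, with one common prior variance, at 5 FPKM and with libraries divided by their sums. Slc38a2 kept its call under the other 5 fits, at a limma adjusted p between 0.0111 and 0.0488. The transporters' median change of -0.45 became -0.0574 with libraries divided by their sums and lay between -0.55 and -0.35 with a set left out; the relative median of -0.06 became -0.14 with the level trend removed and lay between -0.09 and -0.02 with a set left out. Slc7a3 and Slc1a5 reversed, to 0.21 and 0.0901, with libraries divided by their sums. No transporter passed in the relative comparison in any limma fit run, and the replicate block changed no other call among the members. The cause of these changes was not tested further. Read depth is unknown, so what depth limits cannot be stated.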
